A study of Mus musculus with 2 samples.

Results

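Fibroblast growth factor (FGF) receptors and the proteins that couple them to the cell were examined in ureters of mouse embryos. Fgfr2 and, in part, Fgfr1 had been targeted in the mutants. The group comprised the receptor tyrosine kinases Fgfr1, Fgfr2, Fgfr3 and Fgfr4, the receptor-like protein Fgfrl1, the docking proteins Frs2 and Frs3, and the transmembrane partners Flrt2 and Flrt3. Its members were all probes whose gene symbol was one of these 9, which gave 19 of the 39429 probes on the array. RefSeq accessions of the probes added 0 more. The 9 genes stood among 30011 gene, clone and transcript names on the array.

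The data were 2 two-colour Agilent microarrays, each hybridised with cRNA of a mutant pool and of control ureters, dissected at E13.5 from NMRI mice. The control ureters are called a control pool here, although the sources name a pool for the mutants only. Mutant ureters carried the Pax2-cre transgene, 2 floxed alleles of Fgfr2, and 1 floxed allele of Fgfr1 beside an Fgfr1 allele that was either wild type or floxed. Ureters of both Fgfr1 genotypes had been combined in the mutant pool. Control ureters had no Cre transgene in their label and carried 1 floxed allele of each gene beside an allele that was either wild type or floxed. Floxed alleles of Fgfr1 and Fgfr2 were therefore present in all 4 pools. On array 1 (female) mutant RNA was labelled with Cy5 and control RNA with Cy3. On array 2 (male) the dyes were swapped, so sex and dye orientation cannot be told apart. No source used here gives the number of embryos in a pool. The p-values rest on the spread between these 2 arrays, moderated by that of all tested probes. They do not measure the spread between embryos. The comparison asks how transcript levels of the ureter change where Pax2-cre is present with 2 floxed alleles of Fgfr2 and 1 or 2 of Fgfr1.

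FGF receptors are single-pass membrane proteins that dimerise when an FGF binds together with heparan sulfate, and then phosphorylate each other and the docking protein FRS2. Phosphorylated FRS2 recruits GRB2 and SHP2 and feeds the RAS-ERK cascade. In the developing urinary tract, the IIIb splice form of FGFR2 is the receptor of epithelia for FGF7 and FGF10 made by the surrounding mesenchyme. Pax2-cre is active in the nephric duct lineage, which forms the epithelium of the ureter. The ureter pools hold epithelium and mesenchyme, so fewer cells of a type and less RNA per cell cannot be told apart.

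The probes are 60 bases long, and the sequences that bear on what each probe can report are shown 5′ to 3′ as the array design gives them. Both Fgfr2 probes lie at the very end of the reading frame, and the capitals mark its stop codon.
Fgfr2 probe 1: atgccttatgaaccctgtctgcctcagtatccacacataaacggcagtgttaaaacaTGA
Fgfr2 probe 2: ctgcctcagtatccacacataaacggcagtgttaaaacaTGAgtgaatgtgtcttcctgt
Probe 1 covers the last 19 codons and the stop codon, and probe 2 reaches 18 bases into the 3′ untranslated region. They share 42 bases and are not independent measurements. Both are assigned by the design to the 2 RefSeq transcripts it lists for Fgfr2, so they do not separate splice forms.

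The first probes of Fgfr1 and Fgfr4 cover matching stretches of the kinase-coding sequence. Capitals mark the 35 of 58 aligned bases that the pair shares (60.3%).
Fgfr1 probe 1: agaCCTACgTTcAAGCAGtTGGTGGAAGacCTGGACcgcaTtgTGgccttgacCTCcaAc
Fgfr4 probe 1: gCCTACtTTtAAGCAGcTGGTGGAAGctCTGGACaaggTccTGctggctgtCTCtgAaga
Their longest shared run was 9 bases. Apart from the overlapping Fgfr2 pair, the longest run shared by any of the 171 pairs of probes was 10 bases.

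The last 30 bases are shown for the probe with the lowest mean ratio (Fgfr4) and for the 2 with the largest difference between the arrays, with runs of 4 or more of the same base in capitals.
Fgfr1 probe 2: tattAAAAAcaaacgaacagaaagAAAAAA
Fgfr4 probe 2: agaacatggcaTTTTTataaattaTTTTTT
Flrt3 probe 2: AAAAccataccacTTTTTgttgccatgact
Over their 60 bases, these probes had GC contents of 38.3%, 36.7% and 35%, and the first probes of Fgfr1 and Fgfr4 had 55% and 53.3%. The AT-richest probe of the group was that of Frs3, with 15% GC. Over all tested probes, the median difference between the arrays was 0.24 under 35% GC, 0.23 at 35 to 40% and 0.21 at 50% and over. What part base composition has in the values of single probes was not tested.

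Of the 19 probes, 17 were well above background in a whole group and were tested, and all 9 genes had at least 1 tested probe. None of the 17 was called by limma at an adjusted p of 0.05, where 6 of all 27474 tested probes (0.0218%) were called, all 6 higher in the mutant pools. At an unadjusted p under 0.05 there was 1 member probe, beside 3.87% of all tested probes. Each ratio is the log2 of mutant over control, first on array 1 and then on array 2, or the mean ± SD of both (n = 2 arrays). Positions are those of the array design on the mm9 build. The error within an array is the SD over the spots of a probe, 2 to 4 per array after flagged spots were left out. Levels are log2 intensities of each channel after normalisation, and they are compared within a probe only.

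Across the array, 67.8% to 77.0% of probes were well above background in each channel and 0 spots were saturated. The ratios of all tested probes had an SD of 0.20 on array 1 and 0.32 on array 2. The 18 genes listed as markers of ureteric epithelium and the 12 of ureteric mesenchyme all had a tested probe, and none of the 30 was called. Of all genes, each by its brightest tested probe, 21.4% were lower and 22.1% higher on both arrays. The epithelial markers had a median ratio of -0.25, with 11 lower and 1 higher on both arrays. Their summed linear levels were 99042 and 92891 in the mutant pools, against 113292 and 118965 in the control pools. Bright probes weigh most in such sums. The brightest epithelial marker, Krt18, had log2 levels of 15.36 and 15.13 in the mutant pools, against 15.59 and 15.65 in the control pools. The mesenchymal markers had a median of -0.26, with 8 lower and 3 higher. Markers of other cells had medians of 0.68 (leukocytes, 17 genes), 0.70 (erythroid, 14), 0.37 (skeletal muscle, 12), 0.30 (neurons and neural crest, 15), 0.77 (liver, 10) and 0.03 (nephron progenitors, 8). Summed leukocyte marker levels were 23315 and 24277 in the mutant pools, against 14071 and 13836 in the control pools, with 14 of 17 genes higher on both arrays, S100a8 and S100a9 called, and Spi1 not well above background. What part these markers have in the receptor values was not tested.

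**Figure D1:**
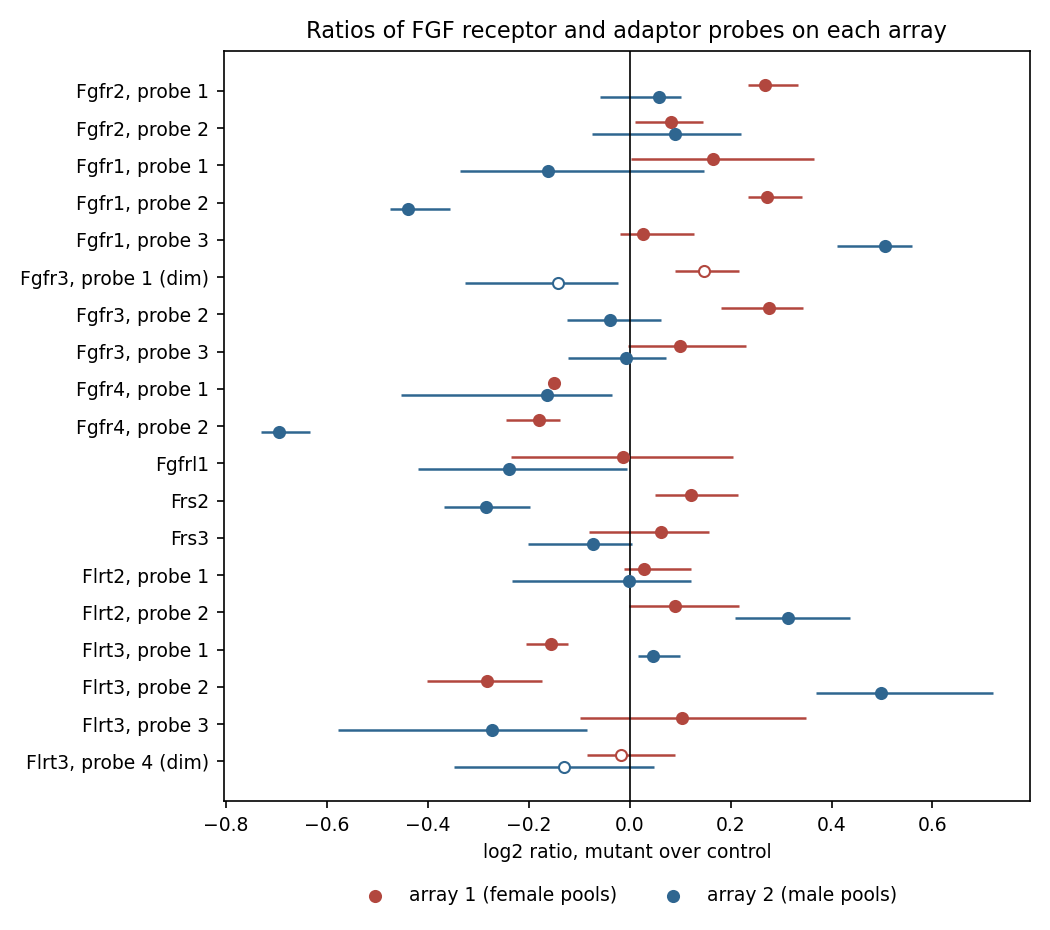
Log2 ratios of mutant over control for the 19 probes of FGF receptors and adaptors on each array. Points are means over the spots of a probe, lines run from the lowest to the highest spot, open points are the 2 probes that were not well above background, and probes are numbered 5′ to 3′. Of the 17 tested probes, 10 had ratios of opposite sign on the 2 arrays.

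Neither probe of Fgfr2, the gene with both alleles floxed in all mutant ureters, was lower in the mutant pools. Probe 1 (chr7:137307473-137307532, minus strand) had levels of 10.27 and 10.35 in the mutant pools, against 10.00 and 10.29 in the control pools. Probe 2 (chr7:137307455-137307514, minus strand) was at 9.48 and 9.54 in the mutant pools and at 9.40 and 9.45 in the control pools. Mutant levels were above control levels on both arrays at both probes.

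The ratios of Fgfr2 were 0.27 and 0.06 at probe 1 and 0.08 and 0.09 at probe 2. At probe 1 all 4 spots of array 1 lay between 0.23 and 0.33, and those of array 2 lay on both sides of 0. At probe 2 the spots of array 1 lay between 0.010 and 0.14, and those of array 2 ran from -0.075 to 0.22. The means were 0.16 ± 0.15 and 0.086 ± 0.007, or 1.12-fold (95% interval 0.877 to 1.43) and 1.06-fold (0.838 to 1.34), with unadjusted p of 0.313 and 0.572 in limma. The lower limits of 0.877 and 0.838-fold apply to this 3′ end sequence, relative to all RNA of the pool. They come from 2 arrays under a single normalisation and set no firm bound on its loss. After median centring in place of loess the ratio of probe 2 was -0.0076, and that of probe 1 was 0.044.

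In the authors' deposited table the signed folds of Fgfr2 were 1.18 and 1.09 at probe 1 and 1.08 and 1.03 at probe 2. No source used here says where the floxed segment lies. The probes check the deletion only if the recombined allele makes less RNA that holds the stop codon. If that RNA is still made at the same level, they check nothing. Fgfr2 RNA of cells without the Cre is part of each value.

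**Figure D2:**
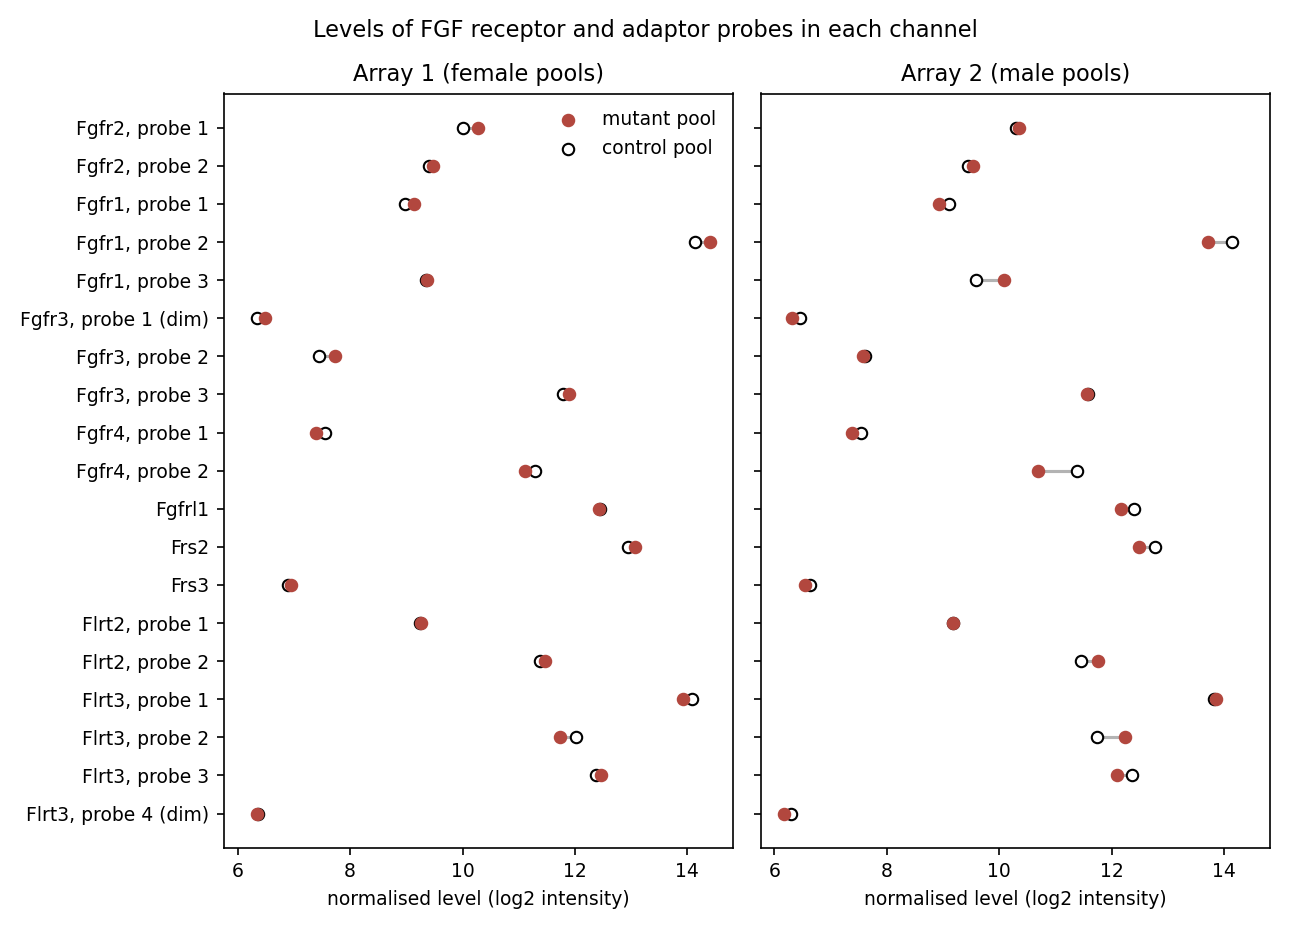
Normalised log2 intensity of each probe in the mutant pool (filled) and the control pool (open), with array 1 on the left and array 2 on the right. Points of a row can be compared with each other, and points of different rows cannot, since probes differ in how brightly they report. Mutant and control levels of Fgfr2 lie within 0.27 of each other on both arrays.

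Fgfr1, the main FGF receptor of the mesenchyme in many embryonic organs, had 3 tested probes that did not move together. Probe 1 (chr8:26684061-26684120, plus strand) was at 9.14 and 8.94 in the mutant pools, against 8.98 and 9.10 in the control pools. Its ratios of 0.17 and -0.16 had opposite signs, and its spots on array 2 lay on both sides of 0. This probe lies in kinase-coding sequence, and its mean was 0.0018 ± 0.23.

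Probe 2 of Fgfr1 (chr8:26685072-26685131, plus strand), the brightest of the gene, was at 14.40 and 13.71 in the mutant pools, against 14.13 and 14.15 in the control pools. The control levels of the 2 arrays thus differed by 0.015, while the mutant level of the male array was 0.70 below that of the female array. The dyes of both pools were swapped between the arrays, so sex and dye cannot be told apart in these differences. Its ratios of 0.27 and -0.44 had spot SDs of 0.060 and 0.056, so the opposite signs exceeded the spot error on each array. The mean was -0.084 ± 0.50, and 93.5% of all tested probes had a smaller difference between the arrays.

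Probe 3 of Fgfr1 (chr8:26685820-26685879, plus strand) was at 9.37 and 10.09 in the mutant pools, against 9.35 and 9.59 in the control pools. Its ratios of 0.03 and 0.51 were above 0 on both arrays, and its spots on array 1 lay on both sides of 0. The mean was 0.27 ± 0.34, or 1.2-fold (95% interval 0.913 to 1.58, unadjusted p = 0.160 in limma). Probes 2 and 3 thus went opposite ways on the male array, at positions 688 bases apart. The means of the 3 probes spanned 0.35, beside a median span of 0.19 and an upper quartile of 0.29 among the 913 genes with 3 tested probes. Mutant ureters carried at least 1 floxed Fgfr1 allele together with Pax2-cre, and no source used here says where its floxed segment lies. The labels leave 1 Fgfr1 allele open in every pool, and the part of the Fgfr1 genotype in these values was not tested.

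Fgfr3, a receptor best known for restraining the growth of cartilage, had 2 tested probes with small ratios. Probe 2 (chr5:34077856-34078090, plus strand) spans 235 bases of the genome with its 60 bases and so crosses a splice junction. It was at 7.72 and 7.58 in the mutant pools, against 7.45 and 7.61 in the control pools, which put the mutant above the control on array 1 alone. Probe 3 (chr5:34079649-34079708, plus strand) was at 11.89 and 11.57 in the mutant pools and at 11.79 and 11.58 in the control pools. The ratios were 0.28 and -0.04 at probe 2 and 0.10 and -0.007 at probe 3, and the means 0.12 ± 0.22 and 0.046 ± 0.075 differed by 0.073. Probe 1, assigned by the design to a separate Ensembl transcript, was not well above background in either group.

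Fgfr4, a receptor known in liver for its response to FGF15 with the co-receptor beta-Klotho, had the member probe with the lowest mean ratio. Probe 2 (chr13:55270033-55270092, plus strand) was at 11.10 and 10.69 in the mutant pools, against 11.28 and 11.39 in the control pools. Probe 1 (chr13:55269212-55269271, plus strand) was at 7.4 and 7.38 in the mutant pools and at 7.55 and 7.54 in the control pools. The mutant level was below the control level at both probes on both arrays.

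The ratios of Fgfr4 were -0.18 and -0.70 at probe 2, with spot SDs of 0.048 and 0.045, and -0.15 and -0.16 at probe 1. Probe 2 averaged -0.44 ± 0.36, or 0.738-fold (95% interval 0.557 to 0.978), and 0.921% of all tested probes had a lower mean. This was the member probe with an unadjusted p under 0.05 (0.0380), and its adjusted p in limma was 1.0. Probe 1 averaged -0.16 ± 0.009, or 0.897-fold (0.708 to 1.14), with 2 unflagged spots on array 1. Under 9 alternative settings the mean of probe 2 ran from -0.57 to -0.43 with adjusted p from 0.860 to 1.0. Some of these settings reuse the same ratios and cannot move the mean. On the female array alone probe 2 was at -0.18, so most of its mean came from the male array. The authors' deposited table gave signed folds of -1.17 and -1.56 for probe 2 and -1.09 and -1.32 for probe 1. Liver markers, of which Fgfr4 is not one, were higher on both arrays at 10 of 10 genes, beside 22.1% of all genes. Their medians were 1.43 and 0.27. What part liver RNA has in the Fgfr4 values was not tested.

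Fgfrl1 binds FGFs but lacks the kinase domain of the other receptors, and in mice it is required for the formation of the metanephric kidney. Its probe (chr5:109135855-109135914, plus strand) was at 12.43 and 12.17 in the mutant pools, against 12.45 and 12.41 in the control pools. The ratios were -0.01 and -0.24, and the spots of array 1 lay on both sides of 0. The mean was -0.13 ± 0.16, or 0.917-fold (95% interval 0.717 to 1.17).

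**Figure D3:**
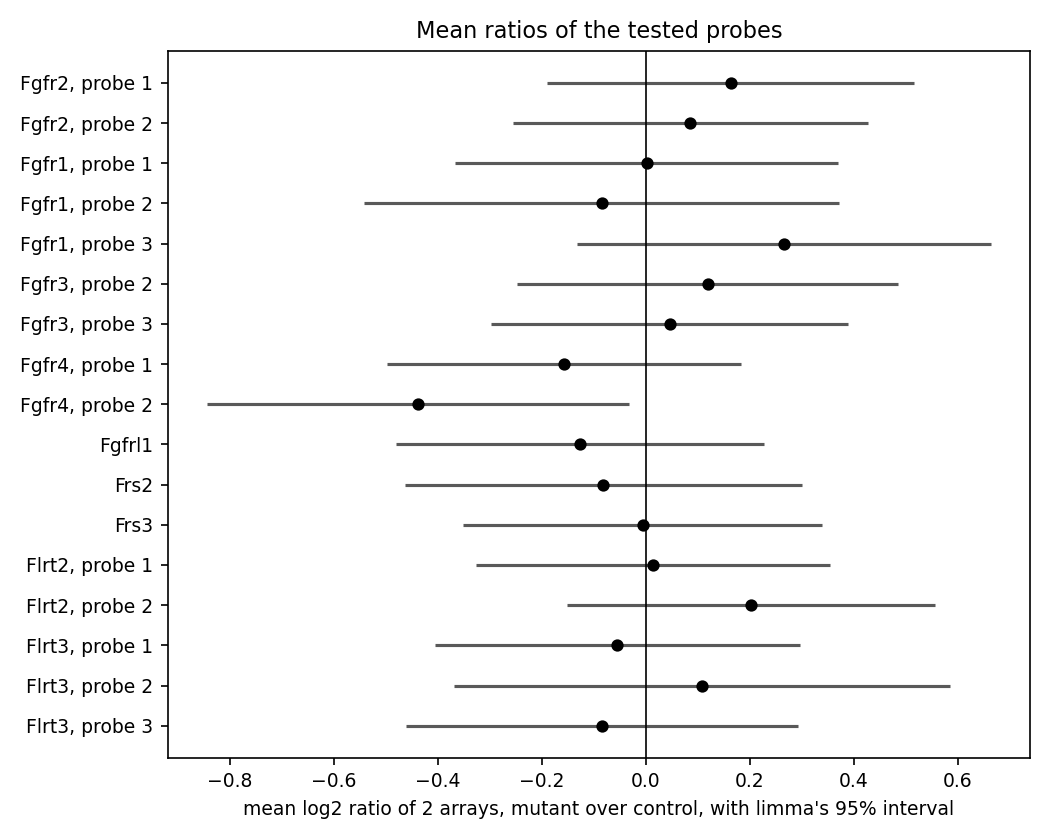
Mean log2 ratio of mutant over control of the 17 tested probes (points) with the 95% interval of limma (lines), n = 2 arrays. Every interval but that of Fgfr4 probe 2 includes 0, and that probe's adjusted p was 1.0.

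Frs2 is the main docking protein of FGF receptors, and Frs3 is its close relative. The Frs2 probe (chr10:116507186-116507245, minus strand) was at 13.07 and 12.50 in the mutant pools, against 12.94 and 12.78 in the control pools. All spots were above 0 on array 1 and below 0 on array 2, with ratios of 0.12 and -0.28. The mean was -0.081 ± 0.29, or 0.945-fold (95% interval 0.725 to 1.23). The Frs3 probe (chr17:47841145-47841204, plus strand) was at 6.95 and 6.55 in the mutant pools and at 6.89 and 6.63 in the control pools. Its ratios of 0.06 and -0.07 had spots on both sides of 0 on both arrays, and its mean was -0.0055 ± 0.095.

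Flrt2 and Flrt3 are leucine-rich repeat membrane proteins that bind FGF receptors and also serve in cell adhesion. Flrt2 had ratios of 0.03 and -0.002 at probe 1 (chr12:97018346-97018405, plus strand) and of 0.09 and 0.31 at probe 2 (chr12:97022826-97022885, plus strand). At probe 2 it was at 11.47 and 11.77 in the mutant pools, against 11.38 and 11.45 in the control pools. Its mean of 0.20 ± 0.16, or 1.15-fold (95% interval 0.900 to 1.47, unadjusted p = 0.221 in limma), was the highest among the brightest probes of the 9 genes.

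Flrt3 had 3 tested probes with opposite signs on the 2 arrays, and they did not have the same sign among themselves. Probe 1 (chr2:140485061-140485120, minus strand), the brightest, was at 13.92 and 13.87 in the mutant pools, against 14.08 and 13.82 in the control pools. Probe 2 (chr2:140484265-140484324, minus strand) was at 11.74 and 12.24 in the mutant pools and at 12.02 and 11.74 in the control pools. Probe 3 (chr2:140483956-140484015, minus strand) was at 12.47 and 12.09 in the mutant pools and at 12.37 and 12.36 in the control pools.

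The ratios of Flrt3 were -0.16 and 0.05 at probe 1, -0.28 and 0.50 at probe 2 and 0.10 and -0.27 at probe 3. Probes 2 and 3 thus had ratios of reversed sign, although 249 bases separate them. The spots of probe 3 on array 1 lay on both sides of 0. Their means were 0.11 ± 0.55 and -0.084 ± 0.27, and that of probe 1 was -0.055 ± 0.14. The span of 0.19 between the means equalled the median for genes with 3 tested probes to 2 digits. For probe 2, 95.3% of all tested probes had a smaller difference between the arrays. Probe 4, which lies 7244 bases downstream of probe 3 and is assigned to another transcript, had no spot well above background in any channel.

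**Figure D4:**
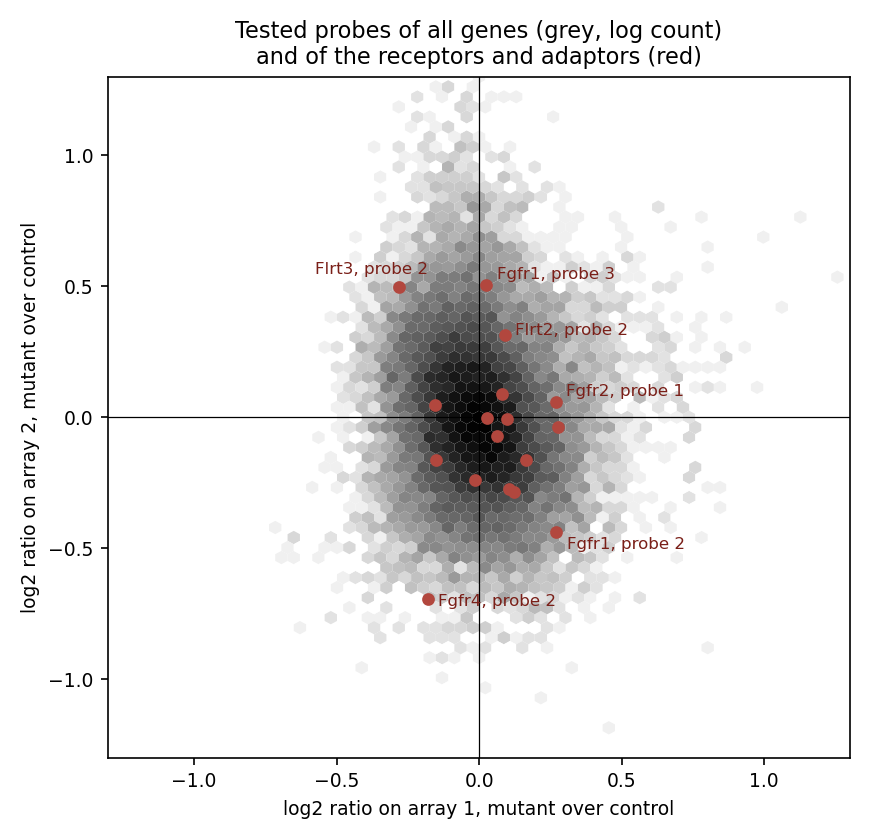
Log2 ratio of mutant over control on array 2 against that on array 1 for all tested probes (grey, darker for more probes on a log scale) and for the 17 probes of receptors and adaptors (red). Probes with larger ratios lie outside the plot. Fgfr4 probe 2 lies at -0.18 and -0.70, and Flrt3 probe 2 and Fgfr1 probe 2 lie in the quadrants of opposite sign.

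As a group, the receptors and adaptors were close to the rest of the array. Of the 17 tested probes, 4 were higher on both arrays, 3 were lower on both and 10 had opposite signs, beside 21%, 23.2% and 55.8% of all tested probes. The median of their means was 0.0018, and that of all tested probes was -0.0014. The median difference between the 2 arrays was 0.23 for the member probes and 0.22 for all tested probes. A difference of 1.5-fold or more with the same sign on both arrays was seen at 0 of the 17, beside 0.328% of all tested probes. At least 1.2-fold in opposite ways were 2 of the 17, Fgfr1 probe 2 and Flrt3 probe 2, beside 3.33% of all tested probes. The members lower on both arrays were both Fgfr4 probes and Fgfrl1, and 7 member probes were lower on both after median centring in place of loess. Under that setting all tested probes had medians of -0.062 and -0.076 on arrays 1 and 2, against -0.0053 and -0.0052 with loess. The share of all tested probes lower on both was not computed for it, so the 7 cannot be set beside the rest of the array.

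Genes along the pathway, listed by their known roles, were set beside the receptors, each by its brightest tested probe, and none was called by limma. An unadjusted p under 0.05 in limma was reached by 2 genes of the ligand list (Fgf11 and Fgf9) and 1 heparan sulfate gene. It was also reached by 5 feedback and target genes and by 0 of the other lists of the pathway. Among all genes, by the same choice of probe, the share higher on both arrays was 22.1% and the share lower was 21.4%, and the median was 0.0044. The list of FGF ligands also holds FGF genes that do not encode receptor ligands, such as Fgf11, and its counts include them. Of its genes 15 of 22 were tested, with 3 higher, 5 lower and a median of -0.051. Fgf11, an intracellular FGF-homologous factor, was at 1.2 and 0.78 (adjusted p = 0.400 in limma), and Fgf9, a secreted ligand, at -0.62 and -0.49 (adjusted p = 0.899). Fgf12 was at -0.18 and -0.46. The FGFR2 ligands Fgf7 and Fgf10 were picked with their values known, and Fgf7 was at 0.009 and -0.11 and Fgf10 at 0.13 and -0.30.

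Co-receptors and heparan sulfate genes (27 of 28 tested) had 7 higher and 6 lower genes and a median of -0.030. Hs2st1, which adds the 2-O-sulfate groups that FGFs bind, was at 0.35 and 0.62, the proteoglycan Sdc1 at 0.76 and 0.07 and the heparan sulfate enzyme Extl3 at -0.11 and -0.44. Downstream adaptors and effectors (16 of 16 tested) had 3 higher and 3 lower, with a median of -0.016, with the RAS exchange factor Sos1 at 0.35 and 0.15, the ubiquitin ligase Cbl at -0.04 and -0.41 and the adaptor Sh2b1 at -0.07 and -0.18. The RAS-ERK core (11 of 11 tested) had 4 higher and 3 lower, with a median of 0.076 that was -0.077 after median centring. Hras was at 0.43 and 0.09, the scaffold Ksr1 at 0.04 and 0.25 and Araf at -0.18 and -0.04.

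Among the lists of the pathway, that of feedback inhibitors and target genes had the largest share of genes lower on both arrays, 11 of 15, with 0 higher and a median of -0.25. Fos was at -1.0 and -0.85 (adjusted p = 0.374 in limma), Egr1 at -0.74 and -1.0 (adjusted p = 0.438) and Spry1, an inhibitor of receptor tyrosine kinase signalling, at -0.49 and -1.06 (adjusted p = 0.777). Epithelial and mesenchymal markers were lower beside them, with medians of -0.25 and -0.26. On the same arrays the receptors and adaptors had a median of -0.055 by brightest probe, with 2 of 9 genes lower, 2 higher and 5 of opposite sign. Whether the 2 lists differ was not tested.

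**Figure D5:**
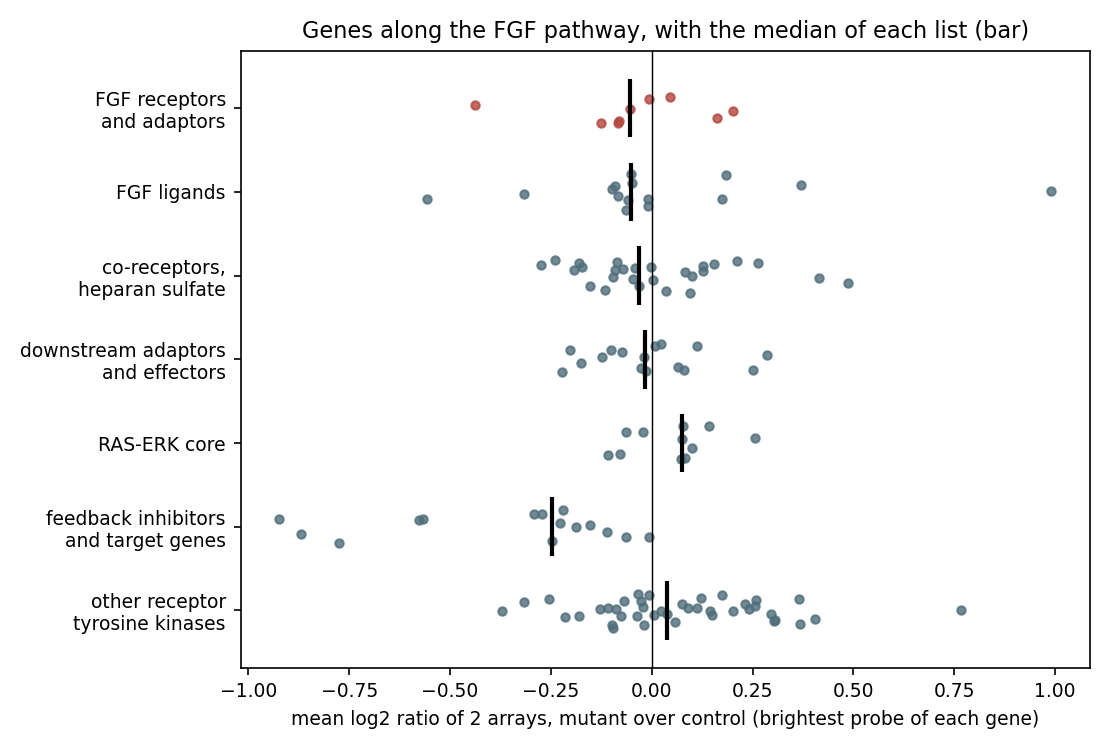
Mean log2 ratio of mutant over control (2 arrays) of each tested gene, by its brightest probe, for the receptors and adaptors (red), 5 lists of the FGF pathway and other receptor tyrosine kinases (grey-blue), with black bars for list medians. The bar of feedback inhibitors and target genes lies at -0.25, and that of the receptors and adaptors at -0.055; vertical scatter within a row carries no value.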

How the data were processed

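The submitters' processing notes name Agilent Feature Extraction 10.7.3.1 as the software behind the scans. Spot means and local backgrounds are raw intensity values per the file headers, and the processed signals are intensity values that the software had corrected for background, spatial trend and dye (LOWESS). The authors' deposited table gives every probe a score on each array, which from its values is a signed fold. How it was computed and centred is not stated in the sources used here. Its column medians were 1, and its sign ran as mutant over control, with correlations across probes of 0.973 and 0.991 to the processed signals.

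In limma 3.58.1 (R 4.3.3), normexp with an offset of 50 and then loess with a span of 0.3 were applied to the raw signals of each array. Outlier-flagged spots (3.41% and 3.20%) were left out, the spots of a probe averaged, and array 2 turned. Spots were printed 4 to a probe. Probes with over a share of 0.5 of spots well above background in a group on both arrays were tested (27474), with lmFit and eBayes against 0 (1 residual and 6.44 prior degrees of freedom) and Benjamini-Hochberg adjustment over all of them. Channel levels follow Aquantile normalization, and linear levels have the offset subtracted. Symbols were updated through RefSeq accessions of GRCm38.p6 (28328 probes). The limma fit with its adjustment was tested on simulated ratios, drawn with the spread that the fit had estimated. Background correction, normalisation, spot averaging and the choice of tested probes were not simulated.

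Members, lists and tests were chosen with earlier results of these data known. Named are all member probes and, per pathway list, genes called, then genes at least 1.5-fold the same way, and at least the 3 of same sign with the largest mean ratio. With 2 ratios, no likeness of pattern between genes was ranked.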

Additional observations from a re-analysis of the deposited data

Results flagged for a closer look

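Of the member probes, 2 differed at least 1.2-fold in opposite ways on the female and the male array. Fgfr1 probe 2 was at 0.27 on array 1 and -0.44 on array 2. Flrt3 probe 2 was at -0.28 on array 1 and 0.50 on array 2. In each case the spots of an array all had the same sign. As scanned, red over green before array 2 was turned, Fgfr1 probe 2 read 0.27 and 0.44 and Flrt3 probe 2 read -0.28 and -0.50. The difference between the arrays was not tested, since there was 1 array for each sex and dye orientation, and the 2 cannot be told apart.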

How the results depend on the processing

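No member probe was called under any of 9 alternative settings. The number of calls among all probes was 14 with a normexp offset of 0 and 14 with the processed signals, against 6, and was 0 after median centring, in the authors' deposited table, with all dim probes tested and in a separate-channel fit of the 4 channels. Member probes lower on both arrays numbered 7 after median centring, and on a single array 5 to 11 of 17 were lower. The medians of all tested probes were also lower after median centring, at -0.062 and -0.076 on arrays 1 and 2. Of 145 probe means compared with the main ones, 11 changed sign, none of them called. Some settings reuse the same ratios, so their means could not change. These are all dim probes tested, only probes well above background in both groups, the brightest probe per gene and the separate-channel fit. With a normexp offset of 0, Fgfr1 probe 1 was at -0.0033. After median centring, Fgfr1 probe 1 was at -0.075, Fgfr2 probe 2 at -0.0076, Fgfr3 probe 3 at -0.099, Flrt2 probe 1 at -0.071, Flrt3 probe 2 at -0.045 and Frs3 at 0.045. Fgfr1 probe 1 and Flrt2 probe 1 were at -0.010 and -0.0033 with the processed signals and at -0.031 and -0.025 in the authors' deposited table. The cause was not tested. Median centring also moved the medians of the co-receptor (-0.12), adaptor (-0.16), RAS-ERK (-0.077), feedback and target (-0.38) and other kinase lists (-0.020), and the processed signals that of the ligands (-0.12). The precision is limited by the number of arrays, 2, with which the 95% interval of Fgfr2 probe 2 was 0.838 to 1.34-fold around its own mean of 1.06-fold. Each ratio pairs a mutant and a control pool on 1 array, so the fit of the ratios against 0 was itself the paired analysis.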

Other observations

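Other receptor tyrosine kinases were measured beside the FGF receptors. Both arrays put 14 of the 41 tested genes higher and 8 lower. Their median was 0.038, 2 had an unadjusted p under 0.05 and none was called by limma. Csf1r, the receptor of macrophage growth factors, was at 0.77 and 0.77 (adjusted p = 0.520 in limma), Epha2 at -0.15 and -0.60 and Epha1 at 0.56 and 0.18. Csf1r is also in the leukocyte list, of which 14 of 17 genes were higher on both arrays.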
